A study of Mus musculus with 10 samples.

Results

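The 35 genes described here encode sensors of foreign or misplaced nucleic acid, the proteins that relay their signal, and genes that interferons induce. They were chosen by symbol from the 15075 genes measured by RNA sequencing of interscapular brown fat (iBAT), and each has 1 row. Ddx58, Ifih1, Dhx58, Zbp1, Eif2ak2, Oas1a, Oas2, Oasl2 and Samhd1 are sensors or act directly on nucleic acid. Mavs, Tmem173, Tbk1 and Trim25 relay the signal, and Irf1, Irf3, Irf7, Irf9 and Stat2 are transcription factors. Ifit1, Ifit2, Ifit3, Rsad2, Bst2, Ifitm3, Isg15, Usp18 and Parp14 were grouped as antiviral effectors or their regulators, and Gbp2, Gbp3 and Tap1 as guanylate binding proteins and antigen peptide transport. Ifi27, Ifi35, Ifi44, Rtp4 and Xaf1 are other interferon-stimulated genes.

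The samples came from 5 Control and 5 AdCKO mice of strain C57BL/6, aged 20 weeks and housed at room temperature, with 1 library per mouse. All 10 mice carried a Crls1 allele whose exon 4 lies between loxP sites. Control mice had no Cre and are called wild type in the sample labels, and AdCKO mice also carried Cre under the adiponectin promoter. This promoter acts in white as well as brown adipocytes, so the deletion was not limited to iBAT, and other cells of the tissue keep the gene. Crls1 encodes cardiolipin synthase, which makes the mitochondrial lipid cardiolipin, and the comparison asks whether its loss in adipocytes came with an interferon response.

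RNA sensors such as RIG-I (Ddx58) and MDA5 (Ifih1) signal through MAVS on the outer mitochondrial membrane, and the DNA sensor cGAS signals through STING (Tmem173). Both routes lead through the kinase TBK1 to the transcription factor IRF3 and to type I interferons. Type I interferons act through a complex that holds STAT2 and IRF9 on the interferon-stimulated response element (ISRE) of target genes, whereas interferon-gamma acts mainly on the gamma-activated site (GAS), and nucleic acid that leaks from damaged mitochondria is a known trigger of the sensors.

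The promoters of 7 of the genes are printed because they differ in the element just named and in how the genes changed. Each line is the 120 bases before the start of the annotated transcript, read 5′ to 3′ on the strand of the gene from the mouse genome build mm9, and capitals mark matches to the ISRE core GAAANNGAAA on either strand. Ifit1, Isg15, Rsad2 and Zbp1 rose in AdCKO iBAT, Gbp3 was not called, and Ifi27 and Mavs fell, Ifi27 with a sign that turned under quantile normalization. The stretches are chr19:34715259-34715378 (plus strand) for Ifit1, chr4:155574928-155575047 (minus) for Isg15, chr12:27141318-27141437 (minus) for Rsad2, chr2:173044424-173044543 (minus) for Zbp1, chr3:142222896-142223015 (plus) for Gbp3, chr12:104672279-104672398 (plus) for Ifi27 and chr2:131059679-131059798 (plus) for Mavs.
Ifit1: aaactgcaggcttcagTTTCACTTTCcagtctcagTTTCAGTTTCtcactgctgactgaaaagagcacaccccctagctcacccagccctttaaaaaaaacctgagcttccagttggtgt
Isg15: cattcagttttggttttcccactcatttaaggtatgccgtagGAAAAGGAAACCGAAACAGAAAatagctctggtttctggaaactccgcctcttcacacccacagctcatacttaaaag
Rsad2: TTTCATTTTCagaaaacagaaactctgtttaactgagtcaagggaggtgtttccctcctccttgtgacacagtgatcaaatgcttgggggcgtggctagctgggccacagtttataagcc
Zbp1: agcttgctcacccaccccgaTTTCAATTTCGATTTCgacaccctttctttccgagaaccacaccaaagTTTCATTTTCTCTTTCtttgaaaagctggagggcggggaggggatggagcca
Gbp3: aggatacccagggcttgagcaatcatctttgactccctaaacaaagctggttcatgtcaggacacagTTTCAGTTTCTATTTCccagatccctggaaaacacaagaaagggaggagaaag
Ifi27: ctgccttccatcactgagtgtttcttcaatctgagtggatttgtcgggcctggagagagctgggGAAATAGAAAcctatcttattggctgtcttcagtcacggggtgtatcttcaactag
Mavs: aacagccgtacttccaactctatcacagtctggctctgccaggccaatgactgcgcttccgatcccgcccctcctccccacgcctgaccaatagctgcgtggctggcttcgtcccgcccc

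Counting from the first transcribed base as 1, Ifit1 held ISRE matches from -104 to -95 and from -85 to -76. In Isg15, 3 matches that overlap each other ran from -78 to -57. Rsad2 held 1 match, from -120 to -111, whereas Zbp1 held 4 matches in overlapping pairs, from -100 to -85 and from -52 to -37. Gbp3 held an overlapping pair from -53 to -38. The promoter of Ifi27 held a match from -56 to -47 and another at 32 to 41, past the start and outside the printed stretch. Mavs, whose mRNA fell, had no match in its window.

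Over the window from 250 bases before to 50 bases after the start, 19 of the 35 genes held an ISRE match (54.3%), against 492 of all 15075 genes (3.26%). A GAS match, TTCNNNGAA, which reads the same on both strands, stood in 11 of the 35 (31.4%) and in 6.89% of all genes. Because most of the genes were picked as interferon targets, these shares describe the choice of genes. Among the 25 genes that were higher in AdCKO, 14 held an ISRE match (56.0%), and among the other 10 it was 5, so the match did not separate them. No ISRE match lay in the windows of Oasl2, Irf7 and Ifi44, although these were among the genes with the larger changes. Over all tested genes called higher, 138 of 2879 held the ISRE match (4.79%), against 3.15% of all genes tested. A match is a run of letters, not a bound site, and the window depends on the start of the 1 transcript used for each gene.

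**Figure D1:**
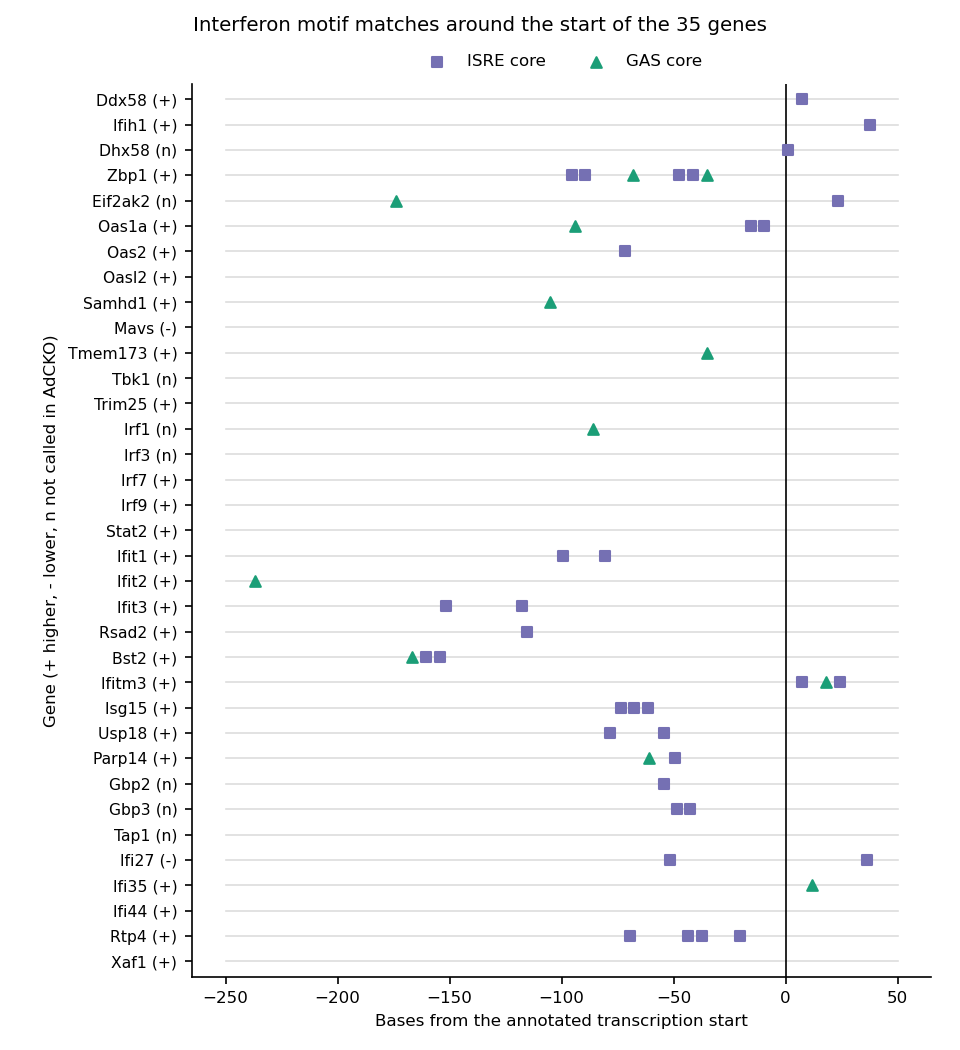
Positions of ISRE matches (squares) and GAS matches (triangles) from 250 bases before to 50 bases after the annotated start (vertical line) of the 35 genes, on either strand, with the call in AdCKO given after each symbol. Of the 35 genes, 19 hold an ISRE match and 11 a GAS match, and genes with and without them occur among those called higher.

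Values are the deposited normalized reads per kb of exon, which allow levels to be compared between genes. Changes are log2 differences (log2 of value + 1, AdCKO minus Control), which understate the change of low genes. Each was tested with limma among 11244 genes whose mean reached 10 in Control or AdCKO, and "higher" or "lower" stands for an adjusted p below 0.01 from that test. All 35 genes passed this filter. A gene whose Control mean was below 10 passed it only through AdCKO, where it was higher. Of the 35 this holds for Oas1a (7.41) and Ifi44 (9.72), and the other lists hold more such genes.

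As a check of the labels, Crls1 stood at 1291, 927, 813, 1101 and 1170 in the Control libraries and at 193, 195, 249, 208 and 242 in the AdCKO libraries, a log2 difference of -2.27 ± 0.13 (SE, adjusted p = 3.53e-08). Adipocyte markers were abundant in every library, with a summed level of 212684 to 241759 in Control and 132081 to 157086 in AdCKO. Of the 7 listed, 6 were lower in AdCKO, beside 28.0% of all tested genes, and the log2 differences of the 7 ran from -1.63 to -0.44. Summed over genes after multiplication by exon length, the normalized reads came to between 7615403 and 8171138 in Control and between 5419800 and 5843024 in AdCKO. With all libraries scaled to 1 common total, the median log2 difference over all tested genes went from -0.01 to 0.47. Some adipocyte differences were near this shift in size, so their calls may depend on the normalization. Skeletal muscle markers summed to 6578, 25621 and 9631 in AdCKO replicates 1, 2 and 4, against 102 to 132 in Control and 149 and 135 in AdCKO replicates 3 and 5. Control replicate 3 and AdCKO replicate 1 also stood apart in immune genes, as given beside the results they touch. In bulk RNA of a tissue, a larger number of cells of a type and more RNA per cell cannot be told apart.

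Of the 35 genes, 25 were higher in AdCKO iBAT, 2 were lower and 8 were not called. Over all genes tested, 25.6% were called higher and 28.0% lower. The median log2 difference of the 35 was 1.30, beside -0.01 for all genes tested, and the values ran from -0.65 for Mavs to 3.00 for Ifit1. With every library scaled to the same total, 32 of the 35 were higher and 0 lower (all genes: 61.4% higher and 9.57% lower), and the median of the 35 still lay 1.30 above that of all genes, beside 1.31 with the deposited values. All 5 AdCKO libraries lay above all 5 Control libraries in 17 of the 35 genes, and below them in 2, where the shares over all tested genes were 24.5% and 26.4%. Each of these 19 genes had an exact two-sided permutation p of 0.0079, the smallest that 5 mice against 5 allow. Without the 3 AdCKO libraries that hold muscle RNA, 17 of the 35 were higher and 1 lower, with a median of 1.00. Of all genes tested in that setting, 18.8% were higher and 19.7% lower. That test rested on 2 AdCKO libraries.

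**Figure D2:**
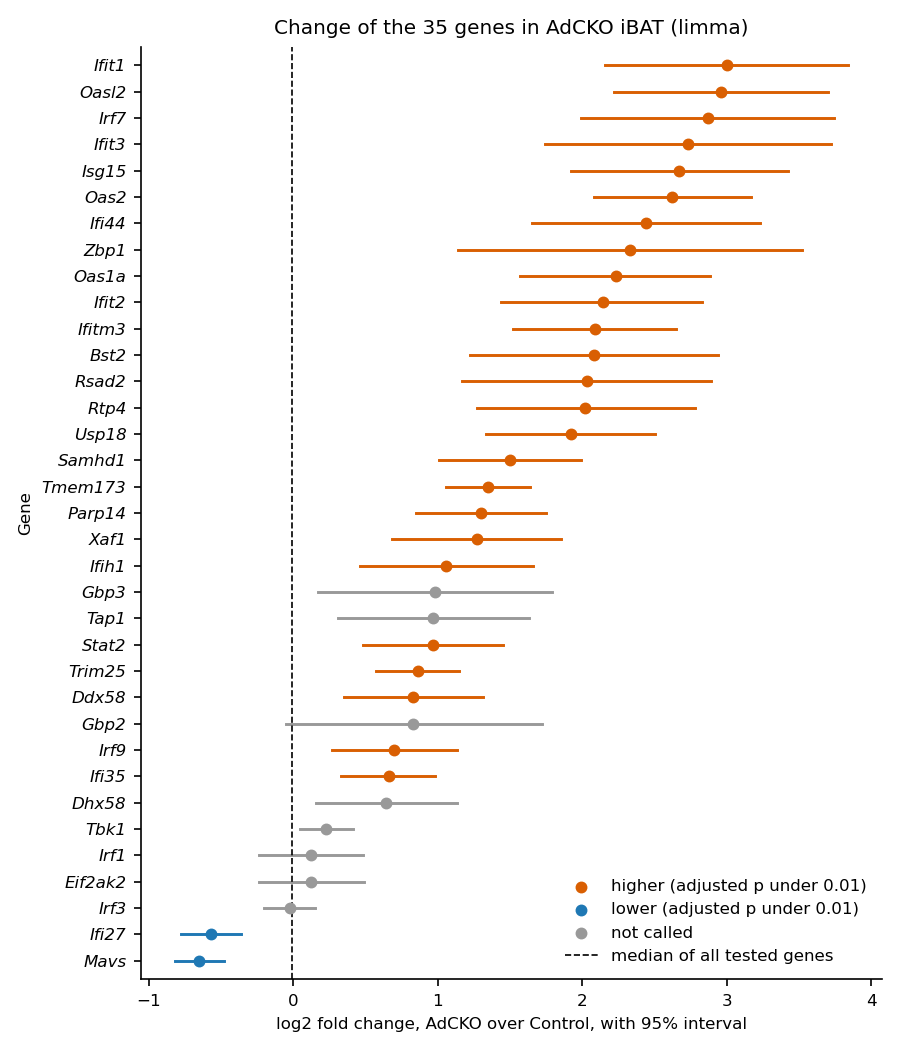
Log2 difference (fold change of AdCKO over Control, n = 5 mice each) of the 35 genes with 95% intervals from limma, ordered by size, with the median of all tested genes as a dashed line. The 25 genes called higher run from Ifi35 at 0.66 to Ifit1 at 3.00, Mavs and Ifi27 lie below 0 (Ifi27 above it under quantile normalization), and the interval of Gbp2 reaches below 0.

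The sensors and their direct effectors were mostly higher, 7 of 9, with a median log2 difference of 1.5. Zbp1, a sensor of left-handed double-stranded nucleic acid that can trigger cell death, stood at 9.35, 8.05, 51.7, 10.8 and 9.48 normalized reads per kb in Control replicates 1 to 5 and at 180, 52.4, 71.5, 106 and 25.4 in AdCKO replicates 1 to 5. Control replicate 3 was far above the other Control libraries and above AdCKO replicate 5, so the groups overlapped. The log2 difference of Zbp1 was 2.33 ± 0.55 (SE, adjusted p = 0.00244). Its call was lost under limma with a robust trend (adjusted p = 0.011) and without AdCKO replicates 1, 2 and 4 (adjusted p = 0.0471).

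Oasl2, which belongs to the family of oligoadenylate synthetases, showed the largest change of the sensor group. Its values were 14, 15.4, 26.9, 19.0 and 17.8 in Control and 310, 118, 158, 196 and 62.3 in AdCKO, and the groups did not overlap. The log2 difference of Oasl2 was 2.96 ± 0.34 (SE, adjusted p = 9.96e-06). Oas2 and Oas1a, synthetases that respond to double-stranded RNA by making short chains of adenylate, moved with it. Oas2 rose from 14.8 ± 2.92 to 102 ± 42.0 (SD, n = 5 each), a log2 difference of 2.62 ± 0.25 (SE), and Oas1a rose from 7.41 ± 1.58 to 42.0 ± 21.3, a log2 difference of 2.23 ± 0.30 (SE). For both, the lowest AdCKO library exceeded the highest Control library. The Oas1 genes are close copies, and how reads that match several copies were counted is not given in the sources used here.

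Samhd1, which breaks down deoxynucleotides, rose from 61.7 ± 19.9 to 177 ± 55.3, a log2 difference of 1.5 ± 0.23 (SE), with no overlap.

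The RNA helicases that lead to MAVS changed less than Zbp1 or the Oas genes. Ddx58, which encodes RIG-I, stood at 50.9, 43.4, 55.3, 32.2 and 38.2 in Control and at 130, 61.0, 75.8, 87.7 and 52.8 in AdCKO. The lowest AdCKO library lay below the highest Control library, and the log2 difference was 0.83 ± 0.22 (SE, adjusted p = 0.00541). Ifih1, which encodes MDA5, stood at 17.5, 14.7, 33.3, 16.7 and 14.9 in Control and at 67.8, 31.4, 40.0, 47.6 and 23.7 in AdCKO. Its groups overlapped through Control replicate 3, and its log2 difference was 1.06 ± 0.27 (SE, adjusted p = 0.00456). Both calls lay near the threshold. That of Ddx58 was lost without Control replicate 2, 4 or 5 or AdCKO replicate 3 or 4, each time with an adjusted p between 0.0109 and 0.0156. That of Ifih1 was lost without Control replicate 1, 2, 4 or 5 or AdCKO replicate 3 or 4, with an adjusted p between 0.0101 and 0.0137. Quantile normalization ended both calls (adjusted p = 0.011 for Ddx58 and 0.0182 for Ifih1).

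Dhx58, the third helicase of the family and a regulator of the other two, was not called. It stood at 31.6 to 38.6 in Control and at 103, 43.8, 54.2, 67.0 and 35.3 in AdCKO, a log2 difference of 0.64 with a 95% interval from 0.16 to 1.13 (adjusted p = 0.0228). Without AdCKO replicate 5 the difference for Dhx58 was 0.81 and passed the test (adjusted p = 0.00348). Eif2ak2, which encodes the kinase PKR that shuts down translation on double-stranded RNA, stood at 38.4 ± 5.39 in Control and 42.9 ± 12.3 in AdCKO. Its difference of 0.12 had an interval from -0.24 to 0.49, and without AdCKO replicate 1 it was -0.02.

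Signal relay genes went in different directions. Mavs, the mitochondrial adaptor that RIG-I and MDA5 share, stood at 419, 507, 441, 414 and 458 in Control and at 261, 304, 300, 256 and 303 in AdCKO. No AdCKO library reached the lowest Control library, and Mavs fell by 0.65 ± 0.08 on the log2 scale (SE, adjusted p = 1.53e-05). With a common total for all libraries the difference was -0.17 and no longer passed (adjusted p = 0.0448), while that of all genes stood at 0.47. Tmem173, which encodes STING, went the other way. It stood at 17.3, 19.4, 23.6, 20.5 and 19.7 in Control and at 72.3, 41.8, 52.1, 52.8 and 48.3 in AdCKO, with no overlap, a log2 difference of 1.35 ± 0.13 (SE, adjusted p = 2.49e-06). Per kb of exon, the level of Mavs was thus far above that of Tmem173 in every library.

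Trim25, the ubiquitin ligase that activates RIG-I, rose from 75.9 ± 8.37 to 141 ± 30.3, a log2 difference of 0.86 ± 0.13 (SE, adjusted p = 0.000112), with no overlap. Tbk1, the kinase on which both routes converge, stood at 65.9 ± 7.80 in Control and 77.1 ± 4.20 in AdCKO. Its difference of 0.23 had an interval from 0.05 to 0.41 and was not called (adjusted p = 0.0301), and without Control replicate 4 it was 0.28 and passed (adjusted p = 0.00792).

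Among the transcription factors, Irf7 changed most. IRF7 is itself induced by interferon and drives the genes of interferon-alpha. Irf7 stood at 38.6, 40.2, 68.0, 43.6 and 43.2 in Control and at 885, 258, 373, 434 and 121 in AdCKO. The lowest AdCKO library was above the highest Control library, and the log2 difference was 2.87 ± 0.40 (SE, adjusted p = 5.14e-05). Irf3, the factor that is activated by phosphorylation and not by induction, was not called. It stood at 163, 206, 178, 197 and 189 in Control and at 192, 200, 169, 166 and 191 in AdCKO, and its difference of -0.02 had an interval from -0.20 to 0.15. With a common total for all libraries it was 0.46, beside 0.47 for the median of all genes.

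Stat2 and Irf9, which are parts of the complex that binds the ISRE, were higher. Stat2 rose from 51.4 ± 11.3 to 105 ± 39.2, a log2 difference of 0.97 ± 0.22 (SE, adjusted p = 0.00214), and Irf9 rose from 60.3 ± 14.2 to 100 ± 29.6, a log2 difference of 0.70 ± 0.20 (SE, adjusted p = 0.00768). The groups of both overlapped, with Control replicate 3 above AdCKO replicate 5. The call of Irf9 was lost without Control replicate 1, 2, 4 or 5 or AdCKO replicate 1, 3 or 4, with an adjusted p between 0.0152 and 0.0214. Irf1, an early target of interferon-gamma, stood at 73.0 ± 16.4 in Control and 79.2 ± 15 in AdCKO, a difference of 0.12 with an interval from -0.24 to 0.48.

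Small parts of the exons of Irf1, Irf3, Irf7, Irf9 and Tap1, between 1.49% and 3.87%, overlap another annotated gene. Ifi27 was not in the annotation used and could not be checked. Whether counting used the strand is not given in the sources used here.

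**Figure D3:**
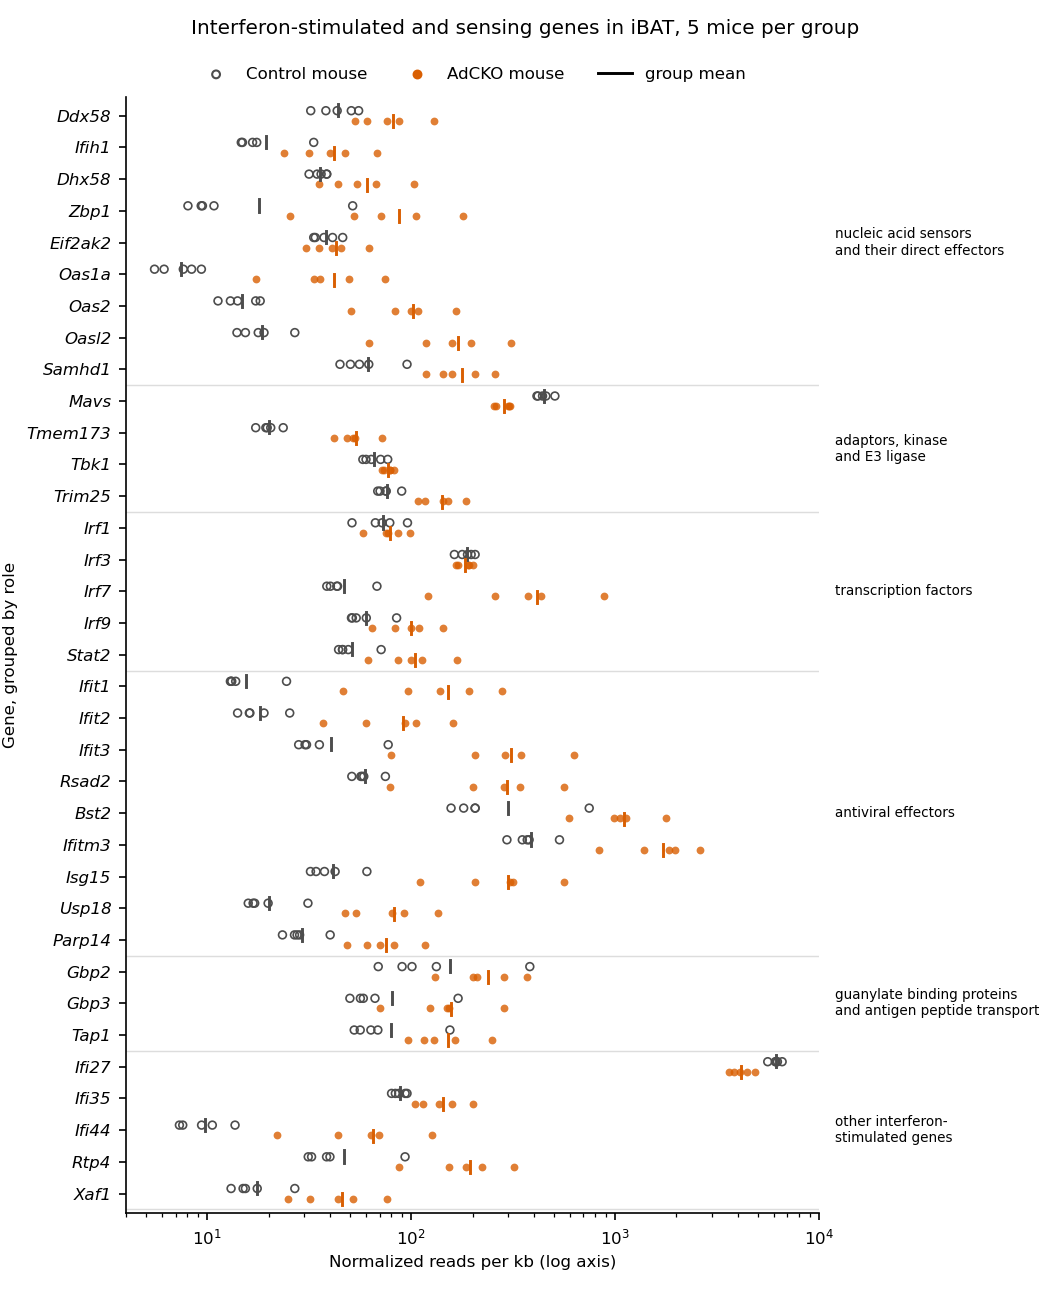
Normalized reads per kb (log axis) of the 35 genes in 5 Control mice (open circles) and 5 AdCKO mice (filled circles), with group means as vertical ticks, grouped by role. The groups are apart in 19 genes, and in Zbp1, Bst2, Gbp2 and others 1 Control circle, replicate 3, stands to the right of the other 4.

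All 9 antiviral effectors were higher, with a median log2 difference of 2.09. Ifit1, whose protein binds viral RNA that lacks the host's cap methylation, stood at 13.0, 13.1, 24.5, 13.8 and 13.2 in Control and at 279, 96.9, 139, 192 and 46.2 in AdCKO. Its groups did not overlap, and the log2 difference was 3.00 ± 0.39 (SE, adjusted p = 2.52e-05). Ifit3 and Ifit2 lie beside it on chromosome 19. Ifit3 rose from 40.3 ± 20.8 to 309 ± 204, a log2 difference of 2.73 ± 0.46 (SE), and Ifit2 rose from 18.1 ± 4.42 to 91.6 ± 47.4, a log2 difference of 2.14 ± 0.32 (SE). Neither overlapped between the groups, although for Ifit3 the highest Control library (77.2) came close to the lowest AdCKO library (79.6).

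Isg15 encodes a ubiquitin-like modifier. It stood at 32.1, 42.4, 60.7, 34.2 and 37.6 in Control and at 560, 205, 317, 306 and 111 in AdCKO, with no overlap and a log2 difference of 2.67 ± 0.34 (SE, adjusted p = 2.49e-05). Usp18, which removes ISG15 from proteins and dampens the type I receptor, rose from 20.2 ± 6.31 to 82.2 ± 35.6, a log2 difference of 1.92 ± 0.27 (SE). Both genes were highest in AdCKO replicate 1 and lowest, within AdCKO, in replicate 5.

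Rsad2 encodes viperin, which makes a chain-terminating nucleotide. It stood at 57.5, 56.7, 74.8, 51.2 and 58.6 in Control and at 562, 202, 286, 343 and 79.0 in AdCKO. The groups did not overlap, but AdCKO replicate 5 was only just above Control replicate 3, and the log2 difference was 2.03 ± 0.39 (SE, adjusted p = 0.000641).

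Of the 9 effectors, Ifitm3 and Bst2, which act at membranes against the entry and release of virus, had the highest levels per kb in AdCKO. Ifitm3 rose from 386 ± 89.0 to 1728 ± 661, a log2 difference of 2.09 ± 0.26 (SE), with no overlap. Bst2 stood at 157, 206, 747, 181 and 206 in Control and at 1770, 989, 1053, 1132 and 592 in AdCKO, and was the 1 effector whose groups overlapped. Its log2 difference was 2.08 ± 0.39 (SE, adjusted p = 0.000532), and Control replicate 3 lay above AdCKO replicate 5. Parp14, an ADP-ribosyltransferase, rose from 29.3 ± 6.37 to 75.6 ± 26, a log2 difference of 1.30 ± 0.21 (SE), with no overlap.

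The other interferon-stimulated genes included 4 that rose and Ifi27, which fell with the deposited normalization. Ifi44 rose from 9.72 ± 2.59 to 65.1 ± 39.3, a log2 difference of 2.44 ± 0.36 (SE), and did not overlap between the groups. Rtp4, which encodes a chaperone of receptors, rose from 47.1 ± 26.1 to 194 ± 86.6, a log2 difference of 2.02 ± 0.35 (SE), with overlap. Xaf1, which promotes apoptosis, rose from 17.6 ± 5.46 to 45.7 ± 19.9, a log2 difference of 1.27 ± 0.27 (SE), with overlap. Ifi35 rose from 88.0 ± 6.44 to 143 ± 38.1, a log2 difference of 0.66 ± 0.15 (SE), with no overlap.

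Ifi27, whose protein is found in mitochondrial and nuclear membranes, had the highest level per kb of the 35 genes in both groups. It stood at 5606, 6253, 6112, 6596 and 6151 in Control and at 3839, 4076, 4839, 3617 and 4429 in AdCKO. No AdCKO library reached the lowest Control library, and Ifi27 fell by 0.57 ± 0.10 on the log2 scale (SE, adjusted p = 0.000212). The direction of Ifi27 turned with quantile normalization, to 0.22 (adjusted p = 0.056), and with a common total for all libraries the difference was -0.09 (adjusted p = 0.421). Ifi27 (chr12:104672399-104678455, plus strand) lies within the span of Ifi27l2a (chr12:104672083-104681890, minus strand), which rose by 1.30 (SE 0.21). Whether their exons overlap was not checked, and whether counting used the strand is not known.

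Gbp2, Gbp3 and Tap1 were the only role group of the 6 with no call. Gbp2 encodes a guanylate binding protein that attacks the vacuoles of intracellular pathogens, and it stood at 90.3, 133, 382, 69.0 and 101 in Control and at 369, 201, 210, 285 and 131 in AdCKO. Control replicate 3 was the highest of all 10 libraries. The difference of Gbp2 was 0.83, with an interval from -0.05 to 1.72 (adjusted p = 0.0892). Gbp3 stood at 58.3, 66.5, 170, 50.1 and 56.4 in Control and at 285, 124, 150, 153 and 70.5 in AdCKO, a difference of 0.98 with an interval from 0.17 to 1.79 (adjusted p = 0.0342). Tap1, a subunit of the pump that carries peptides to MHC class I molecules, stood at 52.6, 63.5, 155, 68.7 and 56.3 in Control and at 250, 116, 130, 165 and 96.2 in AdCKO, a difference of 0.97 with an interval from 0.31 to 1.63 (adjusted p = 0.0136).

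Whether these genes passed depended on single libraries. Without Control replicate 3 all of them passed the test, Gbp2 with a log2 difference of 1.23 (adjusted p = 0.00189), Gbp3 with 1.29 (adjusted p = 0.00286) and Tap1 with 1.24 (adjusted p = 0.000576). Without AdCKO replicate 5, Gbp3 (1.23) and Tap1 (1.11) also passed, each with an adjusted p of 0.00794, whereas Gbp2 did not (adjusted p = 0.0459). Scaling to a common total brought Gbp3 and Tap1 past the threshold too, and Gbp2 to an adjusted p of 0.0116.

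Control replicate 3 was the highest Control library in 29 of the 35 genes (82.9%), against 20.9% of all genes tested and 38.8% of all genes called higher. Its value divided by the mean of the other 4 Control libraries had a median of 1.56 over the 35 genes, beside 0.992 over all genes. The ratio differed between the role groups. Its median was 2.93 for Gbp2, Gbp3 and Tap1, 1.66 for the antiviral effectors and 1.10 for the adaptors, and the highest of the 35 was 5.50, for Zbp1. In the list of 28 tested interferon-gamma-stimulated genes outside the 35, the median ratio was 2.66, and in the list of 46 tested type I interferon-stimulated genes it was 1.30. The highest ratio of that first list belonged to Iigp1, a GTPase that disrupts the vacuoles of parasites, with 757 in Control replicate 3, 43.3 to 63.8 in the other Control libraries and 99 to 408 in AdCKO. T cell markers summed to 126 in Control replicate 3 and 65.7 to 88.6 in the other Control libraries, and macrophage markers to 2496 and 779 to 1466. Their part in these ratios was not tested.

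**Figure D4:**
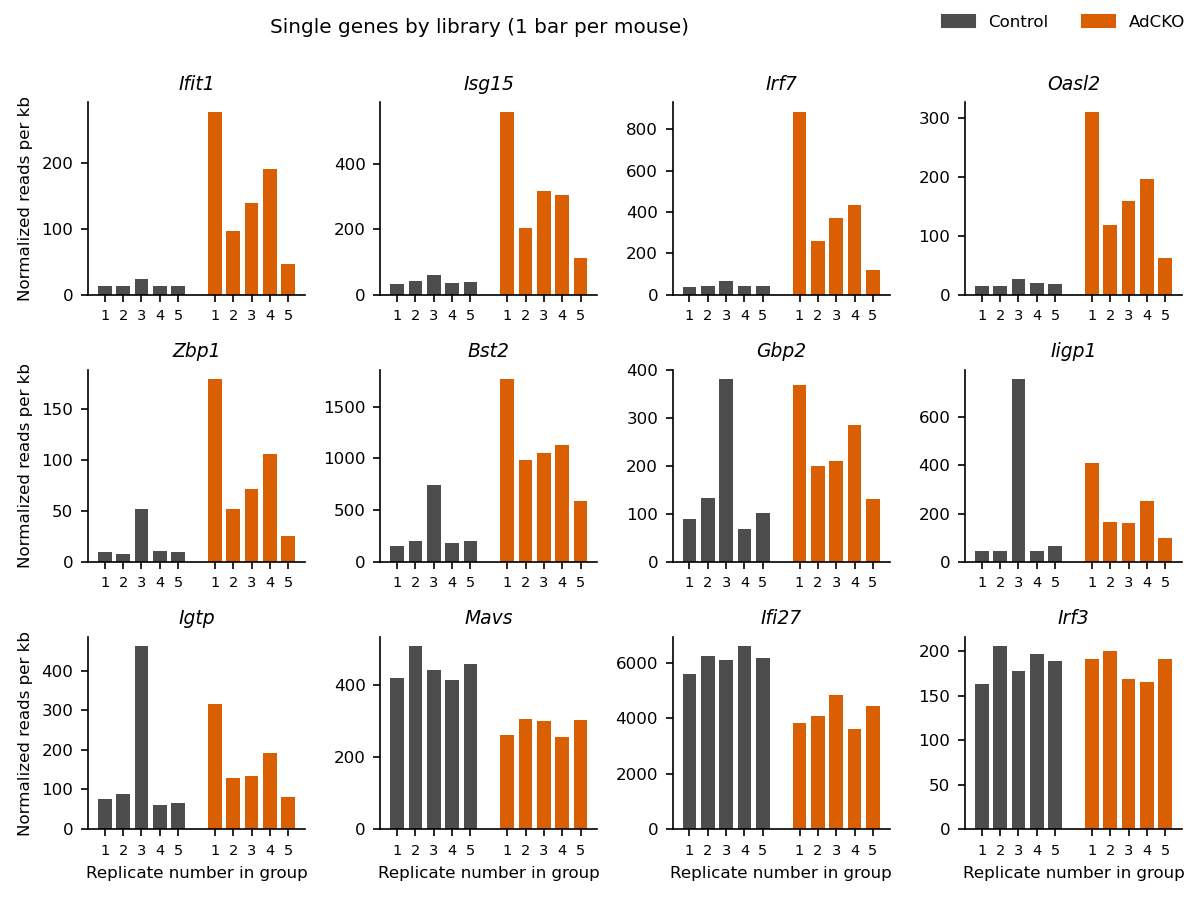
Normalized reads per kb of 12 genes, with 1 bar per mouse, in Control replicates 1 to 5 and AdCKO replicates 1 to 5. In Ifit1, Isg15, Irf7 and Oasl2 every AdCKO bar exceeds every Control bar, in Gbp2, Iigp1 and Igtp Control replicate 3 is the highest of all, and Mavs and Ifi27 are lower in every AdCKO library, which for Ifi27 turned under quantile normalization.

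The 5 AdCKO mice also differed from each other in a shared order. AdCKO replicate 1 had the highest value of its group in 32 of the 35 genes and AdCKO replicate 5 the lowest in 30. Over all tested genes these shares were 17% and 24.2%, and over all genes called higher they were 24.2% and 46.3%. The whole order, replicate 1 above 4, 3, 2 and 5, held in 25 of the 35 (71.4%) and in 2.24% of all tested genes. It held in 20 of the 25 genes called higher, beside 5.73% of all genes called higher. The values of the 25 genes summed to 10174, 4720, 6032, 6711 and 2865 in AdCKO replicates 1 to 5 and to between 1175 and 2470 in Control, with Control replicate 3 the highest. The 35 genes were read in the same 10 libraries and shared this order, so they are not independent readings.

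All 14 macrophage markers were higher in AdCKO, beside 25.6% of all tested genes, and some of the 14 passed the filter only through AdCKO. Their values summed to 779 to 2496 in Control and to 10965, 13487, 10526, 13366 and 9789 in AdCKO replicates 1 to 5. AdCKO replicate 2 had the highest macrophage sum and the second lowest sum of the 25 genes. The order 1, 4, 3, 2, 5 held in 1 of the 14 markers (7.14%), near the 5.73% of all genes called higher. AdCKO replicate 5 was the lowest of its group in 10 of the 14 (71.4%), and Control replicate 3 the highest in 11 (78.6%). Over all genes called higher these shares were 46.3% and 38.8%. Of 7 tested T cell markers 2 were higher, Thy1 and Cd4, beside 25.6% of all tested genes. The list summed to 444, 209, 174, 240 and 175 in AdCKO against 65.7 to 126 in Control. Thy1 alone stood at 198, 148, 118, 159 and 112 in AdCKO and at 25.2 to 50.3 in Control. Cd3e, which was not called, stood at 44.5, 8.11, 7.04, 12.7 and 9.92 in AdCKO and at 5.91 to 12.3 in Control. B cell markers summed to 112, 17.4, 17.7, 24 and 18.1 in AdCKO and to between 18.4 and 21.0 in Control, so AdCKO replicate 1 had the highest sums of lymphocyte markers as well as the highest interferon genes. NK cell markers summed to between 15.5 and 23.9 (Control) and between 17.2 and 35 (AdCKO), and the neutrophil markers to 7.37 to 9.02 and 12.2 to 17.3, with no gene of either list past the filter. Of the markers of plasmacytoid dendritic cells, which are strong producers of interferon-alpha, the defining Siglech and Ccr9 had means of at most 0.979, and Il3ra was the 1 gene tested and was higher. Of 6 endothelial markers 3 were higher (25.6% of all tested genes), and the list summed to 1356 to 1762 in Control and 1485 to 2101 in AdCKO. The part of these cell types in the interferon genes was not tested. Without Control replicate 3 and AdCKO replicate 1 together 28 of the 35 genes were higher and 2 lower (all genes: 23.1% and 24.7%).

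**Figure D5:**
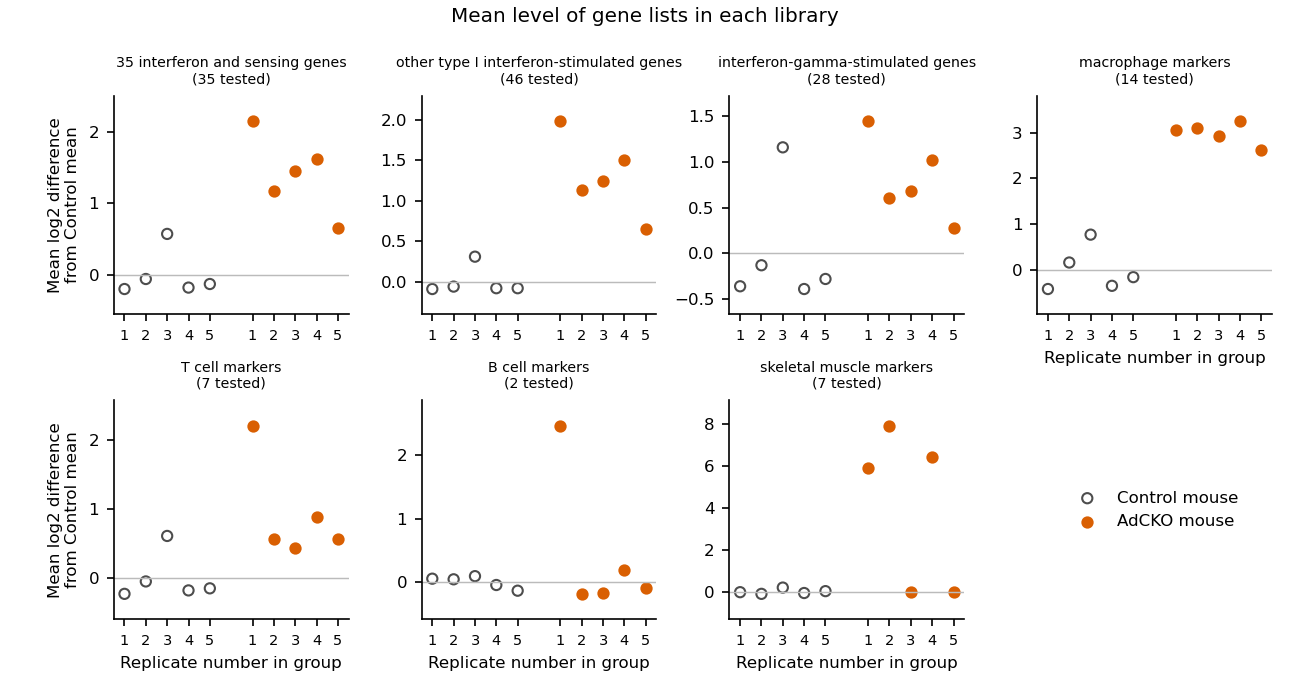
Mean over the tested genes of each list of the log2 difference from the Control mean, in each of 5 Control (open) and 5 AdCKO (filled) mice. The 35 genes and both other lists of interferon-stimulated genes share the order 1, 4, 3, 2, 5 of AdCKO replicates, Control replicate 3 stands high in the interferon-gamma-stimulated genes (1.16), and macrophage, lymphocyte and muscle markers follow other orders.

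The genes around the 35 were read from 8 lists of the interferon pathway, with 126 genes tested. Of these, 71 were higher, 10 lower and 45 not called, with a median log2 difference of 0.77, beside 25.6% higher, 28.0% lower and a median of -0.01 over all tested genes.

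The interferons themselves were near the bottom of the scale. Of 21 listed interferon genes, Ifnb1 and Ifng are in the table. Ifnb1 stood at 1.88 to 1.89 in Control and 1.87 to 2.57 in AdCKO, and Ifng at 1.08 to 1.4 and 1.07 to 1.44. Both were under the filter and were not tested, and at such levels the values do not tell whether the transcript was present.

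Receptor chains did not move together. Ifnar1, a chain of the type I receptor, stood at 75.5 ± 3.01 in Control and 75.5 ± 7.22 in AdCKO, with an interval of the difference from -0.17 to 0.16. The other chain, Ifnar2, fell from 353 ± 32.8 to 193 ± 9.62, a log2 difference of -0.86 ± 0.07 (SE, adjusted p = 9.41e-07). For the interferon-gamma receptor, Ifngr2 rose from 92.6 ± 10.8 to 188 ± 26.5, a log2 difference of 1.01 ± 0.11 (SE, adjusted p = 5.84e-06), and Ifngr1 stood at 322 ± 22 and 309 ± 29.4. Neither Ifnar2 nor Ifngr2 overlapped between the groups.

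Of 12 genes of JAK-STAT signalling, 7 were higher and 1 lower, beside 25.6% and 28.0% of all tested genes. Jak1, a kinase of both receptors, rose by a log2 difference of 0.69 ± 0.06 (SE), and the transcription factor Stat3 by 0.56 (SE 0.07). The inhibitors Socs1 and Socs3 rose by 0.97 (SE 0.19) and 0.93 (SE 0.17). Socs1, with a Control mean of 9.02, passed the filter only through AdCKO. The phosphatases differed: Ptpn6, which is abundant in blood cells, rose by 1.70 (SE 0.26), whereas Ptpn11 had a log2 difference of -0.46 ± 0.07 (SE), which was 0.02 with a common total for all libraries.

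Of 9 other sensors tested, 7 were higher and 1, Pnpt1, was lower, beside 25.6% and 28.0% of all tested genes. Tlr7 and Tlr8 (Control means of 4.69 and 4.65) and others of these sensors passed the filter only through AdCKO. Without a filter, 8 of 10 were higher and 1 lower (all genes: 24.7% and 21.6%). The endosomal receptors Tlr7 and Tlr8, which bind single-stranded RNA, rose by 1.85 (SE 0.15) and 1.66 (SE 0.15), and Unc93b1, which carries them to the endosome, by 1.76 (SE 0.15). Ifi204, a sensor of DNA, rose by 2.57 (SE 0.28). Mb21d1, which encodes cGAS, ranged from 3.33 to 5.57 in Control libraries and from 5.90 to 9.82 in those of AdCKO, without overlap (exact permutation test, p = 0.0079), but was under the filter. Pnpt1, a mitochondrial enzyme that degrades RNA, had a log2 difference of -0.32 ± 0.08 (SE, adjusted p = 0.00427), which turned to 0.16 with a common total for all libraries.

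Among 17 further adaptors, kinases and factors, 4 were higher, 3 lower and 10 not called, which is no larger a share in either direction than the 25.6% and 28.0% of all tested genes. Irf5 rose by 2.38 (SE 0.22), Ikbke, a kinase related to TBK1, by 2.08 (SE 0.20), Irf8 by 1.99 (SE 0.30) and Zc3hav1, an antiviral protein that binds RNA, by 0.92 (SE 0.14). Ikbke, with a Control mean of 6.82, passed the filter only through AdCKO. IRF5 and IRF8 are abundant in myeloid cells, and the macrophage sums are given above. The lower ones were Irak1, a kinase of Toll-like receptor signalling, at -0.95 (SE 0.09), Nlrx1, a mitochondrial protein that has been described as an inhibitor of MAVS, at -0.74 (SE 0.12), and Azi2, an adaptor of TBK1, at -0.41 (SE 0.07). Azi2 turned to 0.07 with a common total for all libraries. In that setting 1 of the 17 genes was lower and 13 were higher (all genes: 9.57% and 61.4%).

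Of 9 nucleases that clear nucleic acid, 3 were higher and 3 lower, near the shares of all tested genes (25.6% and 28.0%). Dnase2a, the lysosomal DNase, rose by 1.15 (SE 0.12) and Rnaseh2b by 0.73 (SE 0.09). Endog and Mgme1, which are mitochondrial, fell by 0.91 (SE 0.11) and 0.84 (SE 0.11) on the log2 scale. Rnaset2b had a log2 difference of -0.47 ± 0.13 (SE), which was 0.01 with a common total for all libraries.

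The targets of the 2 interferon types were counted side by side, and the difference between the lists was not tested. Of the 46 tested type I interferon-stimulated genes outside the 35, 41 were higher and 0 lower, with a median of 1.25. Over all genes tested, 25.6% were higher and 28.0% lower. Without a filter, 40 of the 49 genes of the list were higher, and 24.7% of all genes. Oasl1 led them, rising from 9.84 ± 1.23 to 122 ± 73.9, a log2 difference of 3.26 ± 0.39 (SE, adjusted p = 1.27e-05). Slfn2 rose by 2.80 (SE 0.30), Oas1g by 2.49 (SE 0.27) and Slfn8 by 2.44 (SE 0.29). Oasl1, Oas1g and Slfn8, with Control means of 9.84, 8.66 and 6.17, were among those that passed the filter only through AdCKO. The 5 genes not called were Parp10, Parp12, Tor1aip1, Znfx1 and Tdrd7. In 25 of the 46 the AdCKO libraries stood in the order 1, 4, 3, 2, 5 (54.3%), beside 5.73% of all genes called higher.

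Of the 28 tested genes grouped under interferon-gamma, 8 were higher, 1 lower and 19 not called, with a median of 0.73. The share called higher was near that of all tested genes (25.6%). Without Control replicate 3, 22 of the 28 were higher and the median was 1.10, while the type I count stayed at 41 and its median was 1.31. In that setting 24.7% of all genes were higher. The count of the interferon-gamma genes therefore rested on that library, and without AdCKO replicates 1, 2 and 4 it was 2 (all genes: 18.8%). With a common total for all libraries it was 17 of 28, near the 61.4% of all genes called higher there. Cxcl10, a chemokine that type I interferons induce too, rose by 2.33 (SE 0.38, adjusted p = 0.000187), and its groups did not overlap. Genes of MHC class I rose as well, B2m by 1.73 (SE 0.34), H2-D1 by 1.59 (SE 0.27) and H2-T23 by 1.47 (SE 0.30), and Control replicate 3 was the highest Control library for each. Cd274, which encodes the checkpoint ligand PD-L1, had the 1 lower call of the list, from 193 ± 13.9 to 102 ± 18.3, a log2 difference of -0.93 ± 0.11 (SE, adjusted p = 1.35e-05).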

How the data were processed

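iBAT RNA of 5 Control and 5 AdCKO mice was analysed, 1 library per mouse, grouped by the sample labels. Whether the mice shared litters is not given in the sources used here. The authors prepared polyadenylated RNA with TruSeq 2, mapped reads to mm9 with STAR, built tag directories with HOMER, took exon counts from iRNA-seq and normalized by DESeq2. What the authors deposited is a signal, normalized reads divided by kb of counted exon. It is not a count, and it covers 15075 genes, each through 1 RefSeq transcript. No value is 0 (the smallest is 0.0532), and how genes without reads were treated is not given in the sources used here. Some low genes hardly differed between libraries, such as Ifnb1 in Control (SD 0.00484). Whether the values were moderated between samples is not given either. Such a step would make the spread, the standard errors and the changes of low genes too small. The original depth is unknown, and no counting error can be given. The deposited fold changes and adjusted p-values of the authors' own comparison, and their lists of called genes, were not used.

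After adding a pseudocount of 1 and taking log2, the groups were compared by limma 3.58.1 in R 4.3.3 (intensity trend, two-sided, threshold 0.01 after Benjamini-Hochberg adjustment over all tested genes). Tested were 11244 genes whose mean reached 10 in Control or AdCKO. The threshold and the filter follow the study, the test does not, since it needs counts. For single genes, means were also set against all regroupings of the 10 mice (exact permutation test, two-sided). In simulated data for this comparison, made for 11244 genes with 200 changed, the test recovered 182 of the 192 that were left after filtering (94.8%) and called 4 unchanged genes.

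The 35 genes, the 8 pathway lists and the 9 lists of cell type markers were chosen with earlier results of these data known. All 35 genes are named. Of each pathway list, the called genes with the smallest p are named, at most 4 in each direction, and the genes that define it. Some genes counted in these lists are not reported by name here. Outside this rule, Iigp1, Igtp, Socs1, Ifi27l2a, Cd4, Thy1, Cd3e and the 5 type I genes not called were named after their values were seen. Promoters came from the mm9 genome sequence at the start of each gene's RefSeq transcript, and motifs were searched on both strands. Exon overlaps came from the GENCODE M1 annotation, which held 34 of the 35 genes (not Ifi27).

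The alternatives were other pseudocounts (0.1 and 10), testing without a filter or with a mean of at least 1 across the samples, a common total for all libraries, quantile normalization, limma with a robust trend or with none, a block for the replicate number, omission of each library, and a threshold of 0.05. Leaving out Control replicate 3 with AdCKO replicate 1, or AdCKO replicates 1, 2 and 4, was added after seeing the data. Plots were made in Python 3.11.15 using matplotlib 3.10.9.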

Additional observations from a re-analysis of the deposited data

Results flagged for a closer look

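In 13 of the 35 genes 1 Control library lay farther from the other 4 than Dixon's limit for groups of 5 allows (a gap of more than 0.71 of the range), and in each of them it was Control replicate 3, as the highest. Chance sets apart about 1 in 20 such groups. Over all tested genes the share was 6.84% in Control and 6.1% in AdCKO, and none of the 35 was set apart in AdCKO. The 13 come from the same library, so they are not separate pieces of evidence.

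For the sensors, Control replicate 3 stood at 33.3 for Ifih1 (14.7 to 17.5 in the other Control libraries) and at 51.7 for Zbp1 (8.05 to 10.8). Among the transcription factors it stood at 68.0 for Irf7 (38.6 to 43.6), 84.9 for Irf9 (51.0 to 60.3) and 71.3 for Stat2 (44.1 to 49.2). Of the effectors, Ifit1 stood at 24.5 (13.0 to 13.8), Ifit3 at 77.2 (28.1 to 35.5), Bst2 at 747 (157 to 206) and Usp18 at 31.2 (15.9 to 19.9). The remaining genes were Gbp2 at 382 (69.0 to 133), Gbp3 at 170 (50.1 to 66.5), Tap1 at 155 (52.6 to 68.7) and Rtp4 at 93.4 (31.3 to 40.0). All values are normalized reads per kb.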

How the results depend on the processing

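Of the 35 genes, 22 to 28 were higher with each library left out in turn, 2 were lower each time, and the median log2 fold change ran from 1.13 to 1.44. Over the 8 pathway lists the ranges were 67 to 86 higher and 8 to 10 lower. Scaled to a common total, the median of the 35 was 1.77, with 0 lower, and 5 pathway genes were lower. Quantile normalization left 1 of the 35 lower, as did the removal of AdCKO replicates 1, 2 and 4, chosen after seeing the data. The other alternatives moved these counts by less than 1.5 times. The 2 groups share replicate numbers, but same-numbered libraries did not deviate together (correlations from -0.268 to 0.098, and no library matched its own number best). With the replicate block, 25 of the 35 were higher and 2 lower, with a median of 1.30, and 70 pathway genes were higher and 8 lower.

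Directions turned for genes with differences near 0 and for some that fell. With quantile normalization the difference was -0.04 for Eif2ak2, 0.06 for Irf3, 0.22 for Ifi27 and 0.10 for Ifngr1. With the common total it was 0.46 for Irf3, 0.47 for Ifnar1, 0.42 for Ifngr1, 0.02 for Ptpn11, 0.16 for Pnpt1, 0.07 for Azi2 and 0.01 for Rnaset2b, beside 0.47 for all genes. Without AdCKO replicates 1, 2 and 4 it was -0.21 for Eif2ak2, -0.11 for Irf1 and -0.07 for Il10rb. With each library left out the range was -0.02 to 0.23 for Eif2ak2, -0.07 to 0.01 for Irf3 and -0.04 to 0.04 for Ifnar1. A robust trend ended the calls of Zbp1 (adjusted p = 0.011) and Irf9 (adjusted p = 0.0113), quantile normalization those of Ddx58 (adjusted p = 0.011), Ifih1 (adjusted p = 0.0182) and Irf9 (adjusted p = 0.0114), and testing without a filter that of Irf9 (adjusted p = 0.0111). Without AdCKO replicates 1, 2 and 4, Bst2, Ddx58, Ifi35, Ifih1, Irf9, Stat2, Xaf1 and Zbp1 were no longer called higher, with an adjusted p from 0.0118 (Ifi35) to 0.109 (Irf9), and Ifi27 no longer lower (adjusted p = 0.0154). The causes were not tested. Depth is unknown, and the pseudocount makes fold changes of low genes too small.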
